A study of Mus musculus with 6 samples.

Results

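SR proteins and hnRNPs are the 2 main families of RNA-binding proteins that steer which exons a pre-mRNA keeps. SR proteins, encoded by the Srsf genes, carry a tail rich in serine and arginine and mostly promote exon inclusion from enhancer sequences, whereas hnRNPs coat nascent transcripts and often oppose inclusion. The CDC2-like kinases Clk1 to Clk4 phosphorylate the SR tail and release SR proteins from nuclear speckles, the Tra2 proteins are SR-like activators of GAA-rich exonic enhancers, and Rbm3 and Cirbp are RNA-binding proteins whose transcripts rise in mild cold. Many genes of both families regulate themselves by splicing in an exon with an early stop codon, which sends the transcript to nonsense-mediated decay (NMD).

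Members were all protein-coding genes of the GENCODE M21 annotation (GRCm38) whose symbol starts with Srsf or Hnrnp, together with Clk1 to Clk4, Tra2a, Tra2b, Rbm3 and Cirbp. This gave 39 genes among 54532 Ensembl genes in the count table, namely 11 Srsf, 20 Hnrnp, 4 Clk and 2 Tra2 genes, with Rbm3 and Cirbp. A set of 38 passed the low-count filter. The remaining member, Srsf12, had 0 counts in 5 libraries and 2 counts in the other, which is HFD+Allantoin-H replicate 6.

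The data are liver RNA-seq counts of 6 male C57BL/6J mice, 1 library per mouse. All mice entered at 8 weeks of age and ate a high-fat diet for 4 weeks and then for another 4 weeks; the HFD group (replicates 1 to 3) received no supplement, and the HFD+Allantoin-H group (replicates 4 to 6) received allantoin, the product of urate oxidation, in those last weeks. The labels name supplement doses of 0.06 and 0.3 mg/mL without tying one to a library, and the study's text gives the higher one for the sequenced group. No genetic change was involved, the mice were housed on a fixed light and dark cycle at a set room temperature, and neither the time of day of collection nor a batch is given per library, so that these and the group cannot be told apart. In whole liver, fewer cells of a type and less RNA per cell cannot be told apart either.

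Totals ran from 11326372 to 14601457 counts, and the tested members had 68 to 3744 counts in any library. The mitochondrial chromosome took 36.5, 20.2 and 17.9% of the counts in HFD replicates 1 to 3 and 7.52, 6.92 and 11.4% in HFD+Allantoin-H replicates 4 to 6. TMM factors, which offset such differences in composition, were 0.756 to 0.951 in HFD and 1.12 to 1.19 in HFD+Allantoin-H libraries. With the mitochondrial chromosome left out, the members gave the same counts of calls, 1 higher and 15 lower. The hepatocyte markers were abundant in all libraries, with a summed level of 75663 to 105458 CPM over 8 genes, of which 2 were called higher and 2 lower. Summed macrophage markers lay at 110 to 262 CPM in HFD and 305 to 343 CPM in HFD+Allantoin-H, with 3 of 8 called higher, and summed stellate cell markers at 140 to 206 and 302 to 365 CPM, with 4 of 8 called higher; their part in the values below was not tested. The other markers gave 1 lower of 8 sinusoidal endothelial and 1 lower of 3 cholangiocyte genes tested. Of all tested genes 11.3% were called higher and 13.0% lower. Of the endothelial markers, 7 had a fold change above 0 and 1 below, with a median log2 fold change of 0.48. In edgeR 3 of them were higher and 1 lower at an unadjusted p under 0.05. Of all 12795 tested genes, 2375 were higher and 2624 lower at that threshold. Of the tested adipocyte (3), lymphocyte (6), neutrophil (2) and erythroid (5) markers edgeR called 0, with 0, 2, 2 and 0 lower and 0, 0, 0 and 1 higher at an unadjusted p under 0.05; the neutrophil markers Ly6g and Mmp8 had at most 3 counts in any library. HFD replicate 2 stood apart in adipocyte markers that did not pass the low-count filter, with 520 counts of Adipoq, 498 of Plin1, 200 of Retn and 115 of Lep, against at most 2 counts of each in any other library. Without HFD replicate 2, 16 members were called lower and 0 higher, the 4 Clk genes among the lower ones.

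To compare the members between HFD+Allantoin-H and HFD livers, the quasi-likelihood test of edgeR was applied to 12795 genes, and a gene was called at a Benjamini-Hochberg adjusted p under 0.05. Levels are given in CPM, counts scaled to a common library size with the TMM factors. Of the 38 tested members, 15 were lower (39.5%), against 13.0% of all tested genes, and 1 was higher (2.63%), against 11.3% of all. The median log2 fold change of the members was -0.51, with a range of -2.05 to 0.56, whereas the median of all tested genes was -0.03. All HFD+Allantoin-H libraries lay below all HFD libraries for 18 members, against 21.9% of tested genes, and above them for 2, against 22.4%. With 3 mice per group an exact permutation test cannot give a two-sided p under 0.1, and the 16 called members were at this limit. Scaling by library size only, which raises the median fold change of all genes by 0.41, left 9 members lower and 3 higher and moved their median to -0.092. Without HFD+Allantoin-H replicates 4, 5 and 6 in turn, 9, 8 and 10 members were called lower and 0 higher. In these fits 700, 564 and 832 of all genes were called lower and 596, 460 and 702 higher. With all libraries 1666 genes were called lower and 1446 higher. At an unadjusted p under 0.05 in edgeR and with all libraries, 18 members were lower and 1 higher. Of all 12795 tested genes, 2624 were lower and 2375 higher at this threshold.

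**Figure D1:**
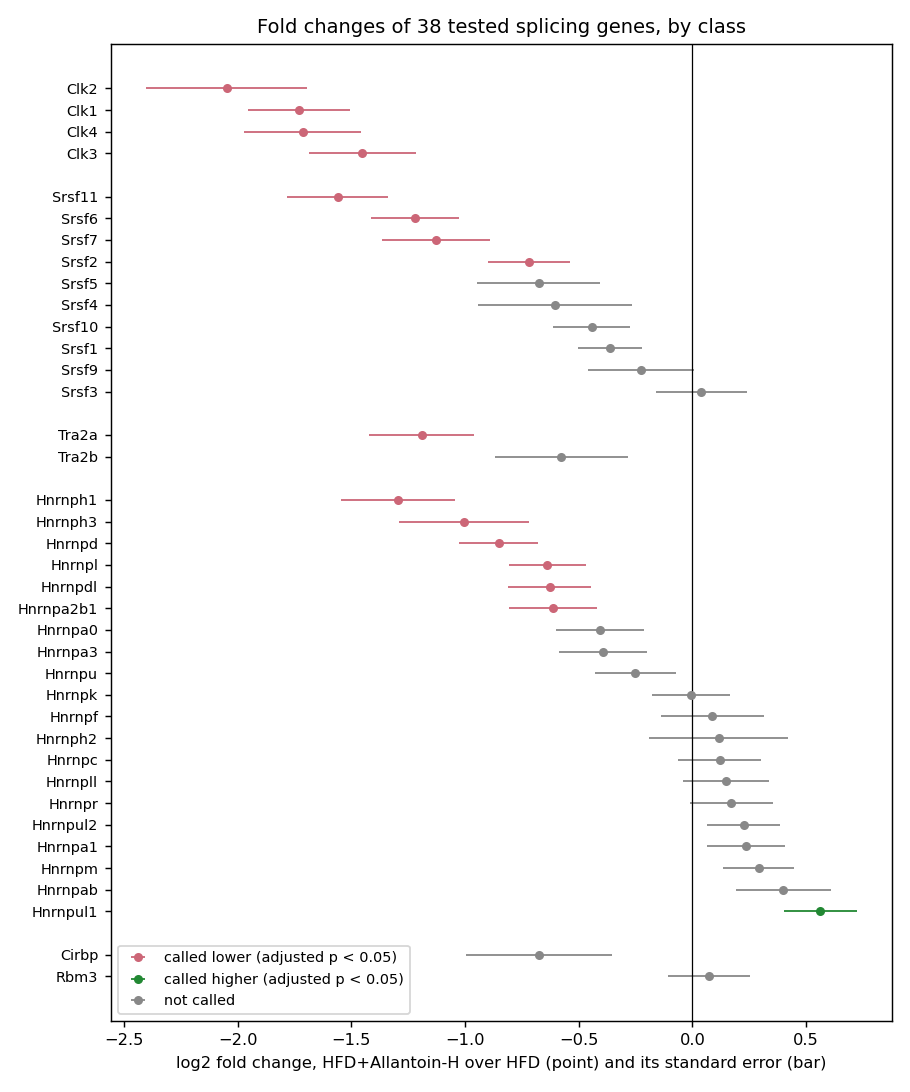
Fold changes of the 38 tested members by class, as log2 of HFD+Allantoin-H over HFD (points) with the standard error (bars) on the x axis and the gene on the y axis; colour gives the edgeR call. The 4 Clk genes lie between -2.05 and -1.45, the Srsf genes spread from -1.56 to 0.04, and the Hnrnp genes spread on both sides of 0.

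The CDC2-like kinases had the lowest median fold change of the classes. All 4 genes fell, by 1.45 to 2.05 on the log2 scale, and in each the highest HFD+Allantoin-H library was below the lowest HFD library. Clk1, whose own splicing responds to temperature, had 158, 96.7 and 102 CPM in HFD replicates 1 to 3 and 31.3, 37.9 and 38.3 CPM in HFD+Allantoin-H replicates 4 to 6. Its log2 fold change was -1.73 (SE 0.22, edgeR adjusted p = 0.00317), which is 3.32-fold lower. Clk4, the member most like Clk1, had 102, 51.9 and 75.4 CPM in HFD and 20.2, 21.6 and 28.01 CPM in HFD+Allantoin-H, with a log2 fold change of -1.71 (SE 0.26, edgeR adjusted p = 0.00406). For both kinases HFD replicate 1 was the highest library and replicate 2 the lowest of the HFD group.

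Clk2, another kinase of SR proteins, was at 39.6, 15.1 and 19.2 CPM in HFD and at 6.82, 5.09 and 5.94 CPM in HFD+Allantoin-H livers, the largest fold among the members (log2 fold change -2.05, SE 0.35, edgeR adjusted p = 0.00591). Clk3 was at 51.3, 29.0 and 32.9 CPM in HFD and at 13.8, 15.2 and 12.4 CPM in HFD+Allantoin-H (log2 fold change -1.45, SE 0.23, edgeR adjusted p = 0.00489). For Clk2 HFD replicate 1 was far above the other HFD libraries, and without it the log2 fold change was -1.53, with all 4 kinases still called. Clk3 shares 1284 exon bases with Edc3 on the opposite strand, and strand handling in the counting is not given in the sources used here. The summed level of the 4 kinases was 351, 193 and 230 CPM in HFD and 72.1, 79.8 and 84.6 CPM in HFD+Allantoin-H, and in TPM, counts per exon length without TMM factors, it was 59.1, 41.9 and 58.2 against 27.2, 29.4 and 29.8. The 4 kinases were called lower in all 20 alternative analyses, also with library size only, where their median log2 fold change was -1.28 in place of -1.72.

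Because the kinases moved together, the windows around their start sites are shown for those that RefSeq (GRCm38.p6) provides, which are Clk2, Clk3 and Clk4 but not Clk1. Each window runs from 250 bases before to 50 bases after a start site of RefSeq, 5′ to 3′ on the gene's strand. For Clk2 this site is the start of the GENCODE gene (89164795). The windows of Clk3 and Clk4 lie inside the GENCODE genes, which begin at 57765860 and 51261730 on the gene's strand. Capitals mark an E-box (CACGTG), a cyclic AMP response element (TGACGTCA), a GC box (GGGCGG) or a CCAAT box (CCAAT) read on either strand.
Clk2, chr3:89164545-89164844, plus strand: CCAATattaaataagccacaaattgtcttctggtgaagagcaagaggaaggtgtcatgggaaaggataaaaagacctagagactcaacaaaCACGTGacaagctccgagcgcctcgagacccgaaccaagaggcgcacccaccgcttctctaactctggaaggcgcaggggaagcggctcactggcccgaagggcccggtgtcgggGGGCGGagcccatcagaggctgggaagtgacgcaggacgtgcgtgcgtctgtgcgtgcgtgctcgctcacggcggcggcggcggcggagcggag
Clk3, chr9:57765065-57765364, minus strand: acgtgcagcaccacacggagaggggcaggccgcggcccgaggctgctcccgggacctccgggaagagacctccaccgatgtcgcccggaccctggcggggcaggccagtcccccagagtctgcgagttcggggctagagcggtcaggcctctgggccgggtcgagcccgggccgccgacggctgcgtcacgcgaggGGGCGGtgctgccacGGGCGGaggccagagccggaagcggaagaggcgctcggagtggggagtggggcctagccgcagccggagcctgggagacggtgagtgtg
Clk4, chr11:51262864-51263163, plus strand: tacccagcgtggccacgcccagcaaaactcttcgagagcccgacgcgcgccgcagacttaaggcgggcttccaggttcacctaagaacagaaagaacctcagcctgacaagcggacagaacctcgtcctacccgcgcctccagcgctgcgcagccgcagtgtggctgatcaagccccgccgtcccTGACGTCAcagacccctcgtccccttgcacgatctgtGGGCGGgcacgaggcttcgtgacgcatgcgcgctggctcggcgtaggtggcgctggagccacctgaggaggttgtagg

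The 3 windows had a GC box in common, which 41 of the 48 windows of 35 members held (85.4%, against 35.7% of 32851 RefSeq windows of this length). The E-box, bound by clock transcription factors, was in the Clk2 window but not in those of Clk3 and Clk4, and in 12.5% of member windows against 7.15% of all. The cyclic AMP response element was in the Clk4 window and in that of Tra2a, giving 4.17% of member windows against 1.79% of all. A CCAAT box stood in 50% of member windows and 37.4% of all, a heat shock element core (GAANNTTC) in 12.5% and 7.86%, a TCGCGA core in 14.6% and 2.50%, and the mild-cold response sequence TCCCCGCC in 8.33%, the window of Cirbp included, and 5.38%. These matches are letters in a window and not sites shown to be used.

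**Figure D2:**
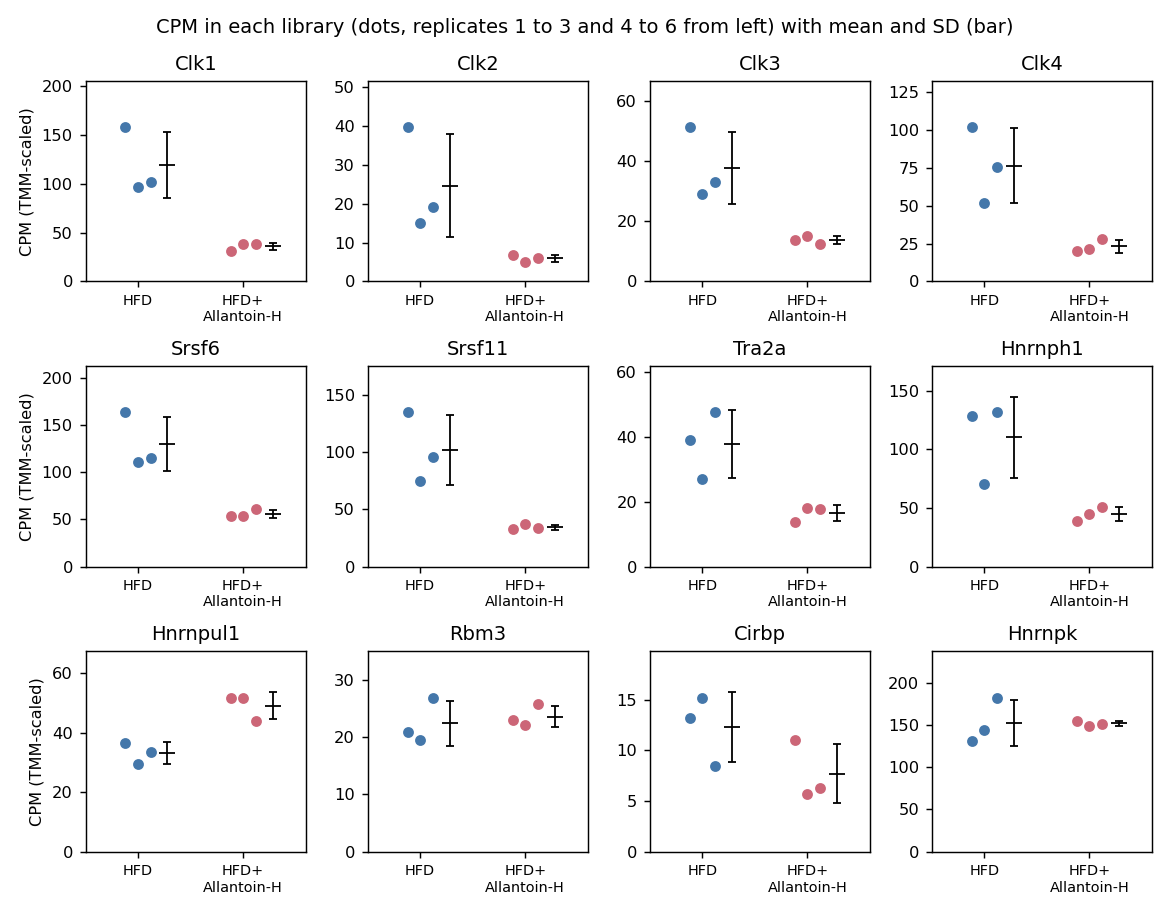
Level in each library in CPM (y axis, from 0) of 12 members in the HFD and HFD+Allantoin-H groups; dots are libraries and the bar is the mean with the SD (n = 3). Groups are apart for the 8 members of the upper 2 rows (lower) and for Hnrnpul1 (higher), and overlap for Rbm3, Cirbp and Hnrnpk.

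Among the SR proteins, 4 of 10 tested genes fell (40%, against 13.0% of all genes) and none rose. The edgeR count at an unadjusted p under 0.05 was 7 lower and 0 higher, against 2624 lower and 2375 higher of 12795 tested genes. DESeq2 and limma-voom likewise called 4 lower and 0 higher. The median log2 fold change of the class was -0.64 (-0.19 with library size only, where 3 were lower). Srsf11, an SR protein that contacts the splice-site recognition factors, was at 135, 75.2 and 95.5 CPM in HFD and 32.6, 37.0 and 33.8 CPM in HFD+Allantoin-H, with a log2 fold change of -1.56 (SE 0.22, edgeR adjusted p = 0.00392). Srsf6 was at 163, 111 and 115 CPM in HFD and 53.6, 53.1 and 60.5 CPM in HFD+Allantoin-H, with a log2 fold change of -1.22 (SE 0.19, edgeR adjusted p = 0.00462). The HFD+Allantoin-H libraries of both genes were close to each other and far below the lowest HFD library. Srsf7, which also serves as an adaptor for mRNA export, was at 55.1, 30.02 and 45.7 CPM in HFD and 17.5, 19.0 and 23.2 CPM in HFD+Allantoin-H, with a log2 fold change of -1.13 (SE 0.24, edgeR adjusted p = 0.0112). Srsf2, a component of nuclear speckles, was at 79.3, 58.7 and 55.5 CPM in HFD and 38.05, 37.3 and 42.05 CPM in HFD+Allantoin-H, with a log2 fold change of -0.72 (SE 0.18, edgeR adjusted p = 0.0216). The groups did not overlap for either gene. Srsf2 shares 460 and 288 exon bases with Mettl23 and Mfsd11 on the opposite strand, and its call was lost with library size only (-0.29).

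Srsf5, per length the most abundant Srsf gene in both groups, did not pass the test. It was at 180, 145 and 82.9 CPM in HFD and at 98.2, 82.0 and 75.0 CPM in HFD+Allantoin-H, so that HFD replicate 3 lay within the other group; the log2 fold change was -0.68 (SE 0.27, edgeR adjusted p = 0.0965), and -0.93 with a call when that library was left out. Srsf1 and Srsf10, an activator of inclusion and an SR protein that turns repressor when dephosphorylated, had log2 fold changes of -0.36 and -0.44 without a call, although their groups did not overlap. Srsf1 was at 68.2, 69.0 and 64.3 CPM in HFD and 51.7, 51.8 and 53.2 CPM in HFD+Allantoin-H. Srsf3, Srsf4 and Srsf9 overlapped between groups, with log2 fold changes of 0.04, -0.61 and -0.23. Summed over the class, SR proteins were at 804, 594 and 580 CPM in HFD and 394, 371 and 403 CPM in HFD+Allantoin-H. On the TPM scale the sums were 205, 205 and 221 in HFD and 238, 220 and 214 in HFD+Allantoin-H, so that the lower sum of the SR proteins was not seen there. The total to which TPM are scaled includes the mitochondrial chromosome, whose share of the counts was larger in HFD. Without TMM factors this difference in composition is not offset, and its part in the TPM sums was not tested.

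Of the SR-like activators, Tra2a fell and Tra2b did not pass the test. Tra2a was at 39.2, 27.0 and 47.7 CPM in HFD and 13.7, 18.2 and 18.0 CPM in HFD+Allantoin-H, with a log2 fold change of -1.19 (SE 0.23, edgeR adjusted p = 0.00891). Tra2b was at 34.3, 32.8 and 68.8 CPM in HFD and 26.8, 27.98 and 36.4 CPM in HFD+Allantoin-H (log2 fold change -0.58, SE 0.29, edgeR adjusted p = 0.177). HFD replicate 3 stood above the other 5 libraries for Tra2b.

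The hnRNP genes were divided. Of 20 tested, 6 fell (30%, against 13.0% of all genes), 1 rose (5%, against 11.3%) and 13 did not pass the test. Of the 20, 10 had a fold change above 0 and 10 below. The median log2 fold change was 0.04, and with library size only it was 0.43, with 1 gene lower and 3 higher. Hnrnph1, which binds runs of G, was at 129, 70.1 and 132 CPM in HFD and 39.0, 44.8 and 50.8 CPM in HFD+Allantoin-H, with a log2 fold change of -1.30 (SE 0.25, edgeR adjusted p = 0.00879). Its relative Hnrnph3 was at 21.1, 12.6 and 15.6 CPM in HFD and 9.90, 9.23 and 5.40 CPM in HFD+Allantoin-H, with a log2 fold change of -1.01 (SE 0.29, edgeR adjusted p = 0.0334), whereas Hnrnph2, of the same subfamily, ranged from 18.7 to 49.6 CPM in HFD and from 33.7 to 35.7 CPM in HFD+Allantoin-H. Hnrnph1 and Hnrnph3 did not overlap between groups, and Hnrnph2 did. Hnrnpd, known as AUF1 for its role in decay of AU-rich mRNAs, was at 51.1, 38.4 and 53.2 CPM in HFD and 27.9, 26.2 and 24.9 CPM in HFD+Allantoin-H, with a log2 fold change of -0.85 (SE 0.17, edgeR adjusted p = 0.0103). Its neighbour and relative Hnrnpdl was at 51.4, 39.4 and 44.6 CPM in HFD and 29.98, 33.2 and 24.4 CPM in HFD+Allantoin-H, with a log2 fold change of -0.63 (SE 0.18, edgeR adjusted p = 0.0352).

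Hnrnpl, which binds CA repeats, was at 98.5, 79.0 and 74.8 CPM in HFD and 59.2, 51.1 and 51.7 CPM in HFD+Allantoin-H, with a log2 fold change of -0.64 (SE 0.17, edgeR adjusted p = 0.0265). Hnrnpa2b1, an abundant core hnRNP, was at 241, 201 and 313 CPM in HFD and 167, 152 and 176 CPM in HFD+Allantoin-H, with a log2 fold change of -0.61 (SE 0.19, edgeR adjusted p = 0.0484). The groups were apart for both genes. With library size only, the calls of Hnrnpd (-0.43), Hnrnpdl (-0.20), Hnrnph3 (-0.56), Hnrnpl (-0.21) and Hnrnpa2b1 (-0.21) were lost. Of these 6 hnRNP genes, Hnrnph1 kept its call in all 20 alternatives and Hnrnpa2b1 lost it in 10, and without HFD+Allantoin-H replicate 5 Hnrnph1 was the only hnRNP gene called. Hnrnpul1, a relative of the nuclear scaffold protein hnRNP U, was the only member called higher, at 36.6, 29.4 and 33.5 CPM in HFD and 51.8, 51.5 and 43.7 CPM in HFD+Allantoin-H, with a log2 fold change of 0.56 (SE 0.16, edgeR adjusted p = 0.0348). All its HFD+Allantoin-H libraries were above its HFD libraries, and its call was lost without HFD replicate 2 (0.48) and without any of the HFD+Allantoin-H replicates (0.53 to 0.64).

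Hnrnpab, per length the most abundant member as a mean over all libraries though not within HFD, was at 59.9, 66.3 and 98.1 CPM in HFD and 109, 97.7 and 89.6 CPM in HFD+Allantoin-H (log2 fold change 0.40, SE 0.21, edgeR adjusted p = 0.193). HFD replicate 3 was within the range of the other group, and without it the gene was called higher with a log2 fold change of 0.65. Hnrnpk, a binder of C-rich RNA, was at 131, 144 and 182 CPM in HFD and 155, 149 and 151 CPM in HFD+Allantoin-H (log2 fold change -0.0063, SE 0.17, edgeR adjusted p = 0.985). The fold changes of the other uncalled hnRNP genes ran from -0.41 for Hnrnpa0 to 0.29 for Hnrnpm. Summed hnRNP genes were at 1442, 1315 and 1815 CPM in HFD and 1326, 1318 and 1293 CPM in HFD+Allantoin-H, with overlapping groups. In TPM, where composition is not offset, the sums were 308, 381 and 606 in HFD and 686, 668 and 602 in HFD+Allantoin-H.

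The cold-responsive genes were of interest since they follow body temperature and, in liver, time of day. Rbm3 was at 20.9, 19.5 and 26.9 CPM in HFD and 22.9, 22.1 and 25.7 CPM in HFD+Allantoin-H (log2 fold change 0.07, SE 0.18, edgeR adjusted p = 0.801). Cirbp was at 13.2, 15.2 and 8.44 CPM in HFD and 11.1, 5.74 and 6.28 CPM in HFD+Allantoin-H (log2 fold change -0.68, SE 0.32, edgeR adjusted p = 0.154). Both genes overlapped between groups, and DESeq2 and limma-voom called neither. Rbm3 turned to -0.019 without HFD replicate 2 and to -0.057 with a correction for transcript length and GC content. The 4 annotated pseudogene copies of Rbm3 held 22, 0, 158 and 47 counts over all libraries, against 1778 for the gene, so that a small part of its reads could have been split off. A further match of 380 bases lies in Phospho2, a separate protein-coding gene with 1512 counts. Clk1, in contrast, fell as described, and the difference between its change and that of Rbm3 was not tested. Genes of the circadian clock that peak from the light phase to dusk gave 5 higher and 1 lower of 11 tested. These shares were 45.5 and 9.09%, against 11.3 and 13.0% of all genes. The median log2 fold change of the list was 0.77 (2 and 2 higher without HFD+Allantoin-H replicates 4 and 5). Among them Usp2 (2.67), Ciart (1.94) and Hlf (0.77) were higher and Per1 (-1.23) was lower. Of 4 tested clock genes that peak at night to dawn, Nfil3 alone was lower (-0.91). Of 20 heat shock genes Hsf1 alone was lower (-1.07), with a median of -0.24 that became 0.12 with library size only and 0.61, with 7 higher, without HFD replicate 3. That library stood apart in the summed heat shock genes, at 9138 CPM against 3227 to 4918 CPM in the other 5, and with HFD+Allantoin-H replicate 6 in the summed immediate early genes (2005 and 1484 CPM, against 121 to 248 CPM in the other 4), of which edgeR called 0 of 12 (1 lower at an unadjusted p under 0.05, and 0 in DESeq2 and limma-voom). Without HFD replicate 3, 15 members were lower and 2 higher. The part of any of these in the members' values was not tested.

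The rest of the splicing machinery was described with lists written from general knowledge. Of 32 SR-related proteins, which carry serine- and arginine-rich stretches without being classical SR proteins, 17 fell (53.1%, against 13.0% of all genes) and 0 rose in edgeR, with the same counts at an unadjusted p under 0.05 and 16 lower and 0 higher in DESeq2 and in limma-voom. Luc7l3 and Srek1 fell by 1.25 and 1.31 on the log2 scale, and Prpf38b and Acin1 fell by 1.35 and 1.08. The median of the list was -0.66, and with library size only it was -0.23, with 9 lower and 1 higher. Leaving out HFD+Allantoin-H replicates 4, 5 and 6 in turn left 8, 8 and 10 of them lower. The kinases, phosphatases and import factors that act on SR proteins besides the Clk genes included 5 higher of 11 (45.5%, against 11.3%) and 1 lower, with a median of 0.34, and 1 and 0 higher without HFD+Allantoin-H replicates 4 and 5. Tnpo3, which imports SR proteins into the nucleus, was higher by a log2 fold change of 1.01, Akt1 by 0.80 and the phosphatase subunit Ppp1ca by 0.94, while the kinase Prpf4b fell by 0.68 on the log2 scale. The tested genes of this list without a call were Srpk1 (-0.54), Dyrk1a (-0.35), Srpk2 (-0.28), Top1 (-0.02) and Dyrk1b (0.34). Of 70 genes of the snRNPs and spliceosome core, 21 fell (30%, against 13.0%) and 4 rose (5.71%, against 11.3%). Their median of -0.19 turned to 0.21, with 8 lower and 16 higher, under library size only. The snRNP proteins Lsm7 (-1.39), Snrpd3 (-1.34), Snrpd2 (-1.28) and Snrpa (-1.02) had the smallest p. Of 41 other splicing regulators 11 fell (26.8%, against 13.0% of all genes) and 4 rose (9.76%, against 11.3%). Their median of -0.19 turned to 0.20, with 4 lower and 6 higher, under library size only. Ewsr1 (-1.20), Rbm5 (-1.36) and Ptbp2 (-1.10) fell and Ptbp3 (0.93), a relative of the polypyrimidine tract binding protein, rose.

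**Figure D3:**
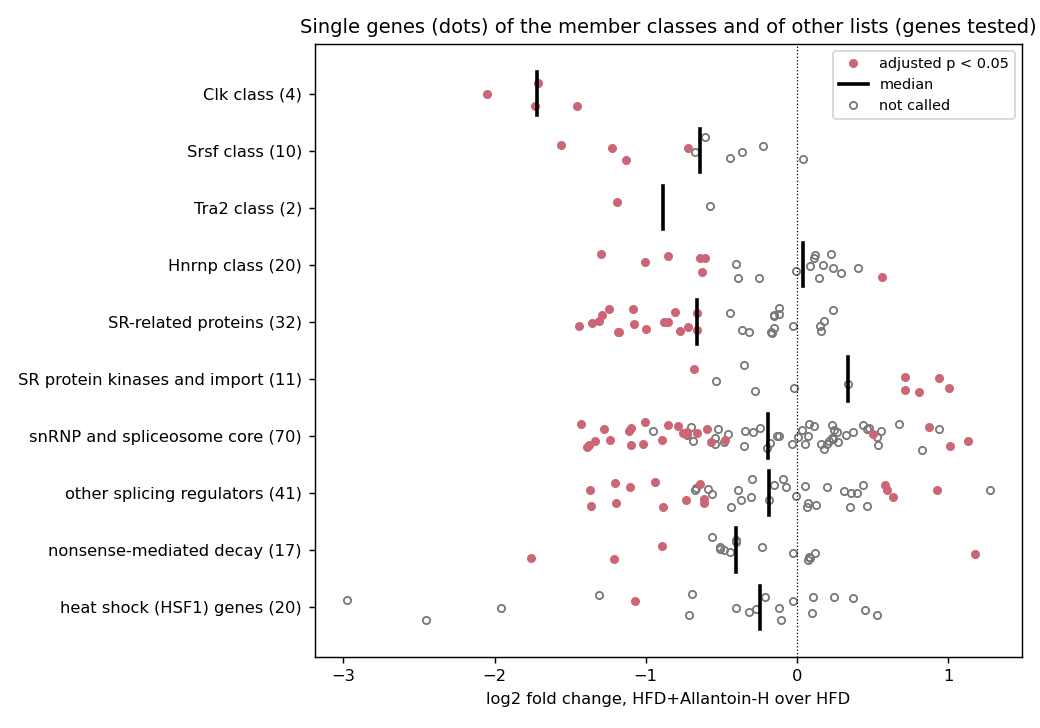
Log2 fold change of HFD+Allantoin-H over HFD (x axis) of single genes (dots) in the member classes and in 6 other lists (y axis, with the number of genes tested); filled dots passed edgeR at an adjusted p under 0.05 and black bars are medians. The SR-related proteins have a median of -0.66, near the -0.64 of the Srsf genes, and the kinase and import list has a median of 0.34.

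Transcript types were then taken from the annotation. A transcript tagged as an NMD target was annotated for 27 of the 38 tested members (71.1%), against 28.9% of 11722 tested protein-coding genes. Among the 27 genes the median log2 fold change was -0.64, with 14 lower and 0 higher, and among the 11 without such a transcript it was 0.12, with 1 lower and 1 higher. Among all tested protein-coding genes the medians with and without an NMD transcript were -0.065 and 0.022, with 351 higher and 505 lower against 1038 higher and 936 lower. Retained-intron transcripts were annotated for 30 members (78.9%, against 59.7%). Their median was -0.62, with 14 lower and 1 higher, against -0.070 for the other 8, with 1 lower and 0 higher. Among all tested protein-coding genes the medians with and without such a transcript were -0.030 and 0.041. Of the 7000 genes with one, 788 were higher and 934 lower, and of the 4722 without, 601 were higher and 507 lower. For 11 of the 39 members an internal exon of an NMD transcript held the stop codon and overlapped no exon of a protein-coding transcript. Overlap with other transcript types, such as retained-intron ones, was not checked. Gene counts do not separate these isoforms from the coding ones, so that no isoform was measured. Of 17 factors of the NMD pathway itself, Magoh (-1.21), Magohb (-1.76) and Upf3b (-0.89) were lower and Nbas (1.18) was higher. These are 17.6% lower and 5.88% higher, against 13.0 and 11.3% of all tested genes. The median of the list was -0.41 and became 0.0011 with library size only.

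To show what such an exon looks like, 6 of these NMD exons are printed from first base to first in-frame stop codon. The stop codon is in capitals and the interval is the whole exon (GENCODE M21, GRCm38, 5′ to 3′ on the gene's strand). Srsf11, Srsf7, Tra2a and Hnrnpl were called lower, and Srsf3 and Tra2b were not called.
Srsf11, chr3:158023243-158023359, minus strand: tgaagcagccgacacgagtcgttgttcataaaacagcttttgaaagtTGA
Srsf7, chr17:80204622-80205081, minus strand: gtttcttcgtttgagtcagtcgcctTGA
Tra2a, chr6:49252803-49253108, minus strand: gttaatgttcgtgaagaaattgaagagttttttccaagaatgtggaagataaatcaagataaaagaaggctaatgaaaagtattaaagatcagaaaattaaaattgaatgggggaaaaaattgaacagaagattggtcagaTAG
Hnrnpl, chr7:28817335-28817404, plus strand: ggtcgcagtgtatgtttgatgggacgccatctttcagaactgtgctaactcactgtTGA
Srsf3, chr17:29039454-29039909, plus strand: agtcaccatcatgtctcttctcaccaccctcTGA
Tra2b, chr16:22258865-22259261, minus strand: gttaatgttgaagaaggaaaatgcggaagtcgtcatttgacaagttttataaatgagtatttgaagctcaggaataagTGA
The stop came 28 bases into the exon of Srsf7, 34 into that of Srsf3 and 50 into that of Srsf11, and 144 bases into that of Tra2a. Genes with and without a call thus both carry such exons.

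Per length of merged exons, the members spanned a wide range of levels. As means over all 6 libraries in TPM, counts per kb scaled to the same total in each library, Hnrnpab (66.6), Hnrnpa2b1 (61.2), Hnrnpf (58.5) and Hnrnpa0 (57.2) were highest, followed by Srsf5 (51.9), the highest of the Srsf genes, and Hnrnpk (48.2). The order differed between groups: in HFD livers Hnrnpa2b1 (57.8 TPM), Hnrnpa0 (49.9), Srsf5 (48.5) and Hnrnpf (42.2) were above Hnrnpab (41.3), and in HFD+Allantoin-H livers Hnrnpab (91.8) was highest, followed by Hnrnpf (74.8). The spread between HFD libraries was wide, with an SD of 18.8 TPM for Hnrnpab and 22.3 TPM for Hnrnpa2b1. Still, Hnrnpa2b1 was above Hnrnpab in each HFD library. The values in replicates 1 to 3 were 42.8, 47.2 and 83.5 TPM against 25.2, 36.7 and 61.9 TPM. Differences between genes in this order were not tested. The kinases were lower, at 16.2 TPM for Clk1, 14.7 for Clk4, 5.32 for Clk3 and 4.70 for Clk2, and Rbm3 and Cirbp were at 10.1 and 7.27 TPM. Hnrnpr was the lowest tested member at 1.96 TPM. Taking the longest annotated transcript in place of merged exons put Hnrnpa2b1 on top, followed by Hnrnpk and Hnrnpab.

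The members called lower had their highest level in HFD replicate 1 (11 of 15) or HFD replicate 3 (4 of 15). HFD replicate 1 is also the library with the largest mitochondrial share. The nuclear-retained RNAs Malat1, a component of the speckles that store SR proteins, and Neat1, the scaffold of paraspeckles, were also lower in all HFD+Allantoin-H livers. They were 2 of 4 tested RNAs in a list of 5 (50%, against 13.0% of all genes called lower). Kcnq1ot1 (-2.24) and Airn (-1.34) overlapped between groups without a call, and Meg3 did not pass the low-count filter. Malat1 was at 296, 186 and 196 CPM in HFD and 88.0, 91.04 and 100.03 CPM in HFD+Allantoin-H (log2 fold change -1.28, SE 0.21, edgeR adjusted p = 0.00506). Neat1 was at 577, 257 and 436 CPM in HFD and 50.6, 64.5 and 55.3 CPM in HFD+Allantoin-H (log2 fold change -2.90, SE 0.29, edgeR adjusted p = 0.0018). HFD replicate 1 was the highest library for both RNAs, as it was for the kinases. Without HFD replicate 1, 12 members were called lower and 1 higher, among them all 4 kinases, Srsf11 (-1.31), Srsf6 (-1.02), Tra2a (-1.17) and Hnrnph1 (-1.17). The part of nuclear RNA content or of the mitochondrial share in these values was not tested.

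**Figure D4:**
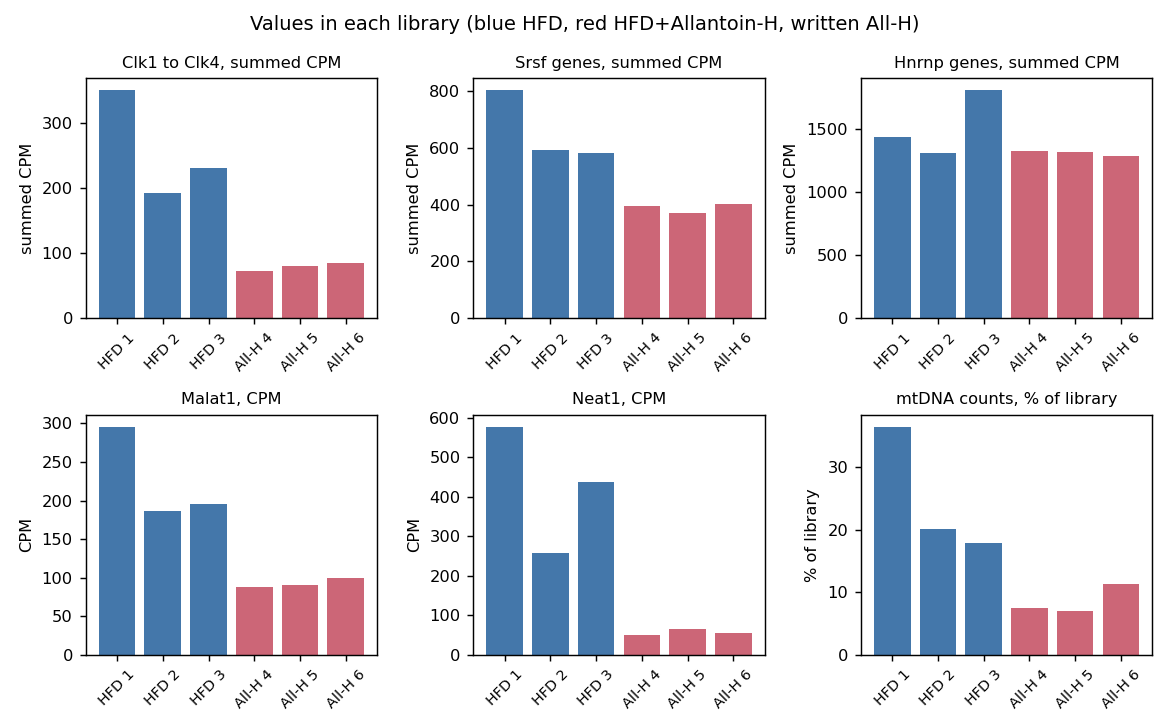
Values in each library (x axis; blue HFD, red HFD+Allantoin-H): summed CPM of the 4 Clk, the Srsf and the Hnrnp genes, CPM of Malat1 and Neat1, and the share of counts on the mitochondrial chromosome in percent; bars start at 0. Clk, Srsf, Malat1 and Neat1 values of every HFD library exceed those of every HFD+Allantoin-H library, whereas the Hnrnp sums overlap.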

How the data were processed

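Liver RNA of 6 mice was sequenced for the authors by the company SMART BIOTECH (SMARTER mRNA-Seq kit, 1 library per mouse). Whole-number read counts per gene, not normalized, were deposited. The submitters' processing notes name GRCm38 and mm10; aligner, counting tool and strand handling are not given in the sources used here. Groups were taken from the sample titles. No sample column was left unused. Of 54961 entries, 429 without an Ensembl identifier (0.197 to 0.306% of counts) were left out, and 54495 of the other 54532 were found in GENCODE M21, which gave symbols, exons and transcript types.

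Counts were normalized by TMM, filtered with filterByExpr and tested with edgeR 4.0.16 (quasi-likelihood, Benjamini-Hochberg over 12795 genes, R 4.3.3); the group was the only term, since no batch or pairing is given. CPM are TMM-scaled, TPM use merged exon length, and the SE was derived from the F statistic. Near-identical copies (at least 95% identity over 200 bases) were found with BLAST 2.17.0. The procedure was tested on simulated data. Values were printed per library for every called member, for Rbm3, Cirbp and Clk1, and for the 2 Srsf and 2 Hnrnp genes of highest TPM; those of Srsf1, Tra2b, Hnrnpk, Malat1 and Neat1 were added after they had been seen. For other lists, up to 4 called genes of smallest p were named. The uncalled genes of the kinase and import list and of the nuclear-retained RNAs were added after they had been seen. Members and lists were chosen with earlier results of these data known. Alternatives were RLE, upper-quartile and library-size scaling, DESeq2 1.42.0, limma-voom (limma 3.58.1), 3 other filters, leaving out each library, 2 stricter thresholds, removal of a length and GC trend (splines, 5 degrees of freedom each), leaving out the mitochondrial chromosome, keeping features without an Ensembl identifier, and adding near-identical copies. P-values measure the spread between mice.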

Additional observations from a re-analysis of the deposited data

How the results depend on the processing

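Of the 16 called members, Clk1 to Clk4, Srsf6, Srsf11, Tra2a and Hnrnph1 (8 genes) kept their call in all 20 alternatives, and the other 8 lost it in 3 (Srsf7) to 10 (Hnrnpa2b1) of them without changing direction. Scaling by library size only gave 3 members higher and 9 lower (members' median -0.092), and 3162 genes higher and 674 lower in all; this setting differs from the reported one by its own construction, since it does not offset composition. An adjusted p under 0.01 left 0 members higher and 8 lower (443 and 573 of all genes), and an unadjusted p under 0.01 with an absolute log2 fold change above 1 left 0 higher and 10 lower (690 and 931). Leaving out 1 library at a time gave 0 to 2 members higher and 8 to 16 lower, with medians of -0.53 to -0.41, and 460 to 1773 genes higher and 564 to 2008 lower; the lowest counts came without HFD+Allantoin-H replicate 5. Rbm3 reversed without HFD replicate 2 (-0.019, with 0.23 as the highest value without 1 library, HFD replicate 3) and with the length and GC trend removed (-0.057), which gave 1 member higher and 19 lower; the cause was not tested. Srsf7 was not called without HFD+Allantoin-H replicates 4 and 5, and Hnrnpd without replicate 5. Srsf2 and Hnrnpl were not called without replicates 4, 5 and 6 of that group in turn, nor were Hnrnpdl and Hnrnph3, which also lost the call without HFD replicate 1. Hnrnpa2b1 was called without HFD replicate 2 but in none of the other fits that left out 1 library. No paired analysis was possible because the groups share no replicate numbers. Tested members had at least 68 counts in each library; Srsf12 could not be tested at this depth.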
